A study of Mus musculus with 19 samples.

Results

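The genes described here divide the handling of ammonia in the liver between opposite ends of the lobule. They are 3 pericentral genes, Glul, Oat and Slc1a2, and 6 periportal nitrogen genes, Gls2, Cps1, Ass1, Asl, Otc and Nags. These 9 genes were chosen by name from the 39179 gene identifiers in the deposited count table, and each had an identifier of its own. They were followed across 10 mouse liver tumours, numbered 04 to 13, of the 13 tumours among the 19 samples in the series. Within a wider study of liver cancer models, this part addressed how far tumours of 1 genotype differ from each other within and between mice.

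All mice in these comparisons were male, heterozygous for the allele written Ctnnb1tm1Mmt in the labels and homozygous for Gt(ROSA)26Sortm1(MYC)Djmy, a human MYC transgene at the Rosa26 locus that Cre recombinase switches on. The study writes the Ctnnb1 allele as Ctnnb1ex3 and describes tumour induction in this model as driven by β-catenin. The virus AAV8.TBG.PI.Cre.rBG was given at 640000000 genome copies per mouse, and its TBG promoter confines Cre to hepatocytes. Per the study's methods, mice were of mixed background and tumours were taken at the end stage as whole tissue, so each library holds tumour cells and whatever stroma, vessels and blood came with them. Control livers and the remaining tumours were not analysed here, because their table columns could not be matched to a label. The series lists 13 tumours, and every value below compares only the 10 tumours described here with each other. Fewer cells of a type and less RNA per cell cannot be told apart in such bulk libraries.

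In normal liver, blood passes from the portal vein to the central vein, and hepatocytes along that path carry different enzymes. Periportal hepatocytes release ammonia from glutamine with the liver glutaminase GLS2 and feed it into the urea cycle, in which NAGS, CPS1, OTC, ASS1 and ASL take part. A thin layer of pericentral hepatocytes traps the ammonia that escapes: glutamine synthetase, the product of Glul, joins it to glutamate, which OAT supplies from ornithine and the transporter encoded by Slc1a2 imports. β-catenin signalling maintains the pericentral programme, and Glul is the marker commonly used for it.

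Libraries held 11687034 to 36964427 gene counts, with a median of 16664597. The smallest abundance that 3 counts can show was 0.0812 to 0.257 CPM (a gene's counts per 1000000 gene counts, scaled by TMM). All 9 genes passed the filter on low counts, which left 12462 genes, and the smallest count of any of them was 15. The column names carry 5 different tags in 3 families, tumours 04 to 06, tumours 07 and 08, and tumours 09 to 13. What a tag stands for is not given in the sources used here. If it is a mouse, tumours with the same tag are not independent, and p-values measure only the spread between these samples. Hepatocyte markers were abundant in every tumour (Alb 13017 to 22990 CPM). Summed markers of other cells reached 34.3 to 316 CPM for endothelium, 184 to 1317 for stellate cells, 43.8 to 130 for macrophages, 13.6 to 145 for cholangiocytes and 0.526 to 4.54 for lymphocytes. None of the listed markers was at 0 in all 10 tumours. Summed globin genes and Alas2 reached 6178 CPM in tumour 07 and 101 to 1767 CPM in the others. Rpph1, Rmrp, Rny1 and Rny3, short RNAs that normally lack a poly(A) tail, summed to 47.1 to 83.6 CPM in tumours 05, 06 and 07 and 1.65 to 6.46 CPM in the others.

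Start-site windows were read for the genes to show whether letters bound by the nuclear partners of β-catenin are present. RefSeq windows on GRCm38.p6, running from 250 bases before the start to 50 bases after it, were at hand for 6 genes: Glul, Oat, Slc1a2, Ass1, Otc and Nags. The letters ATCAAAG, the core recognised by TCF proteins, were searched on both strands and occurred in 2 of the 6 windows, Slc1a2 and Nags, against 1225 of 32851 windows genome-wide (3.73%). The letters CCAAT, common near start sites, occurred in Glul and Oat, against 37.4% of all windows. The windows with either motif are shown 5′ to 3′ on the gene's own strand, with the ATCAAAG match in capitals for Slc1a2 and Nags and CCAAT or its complement in capitals for Glul and Oat. They cover chr1:153899679-153899978 (plus strand) for Glul, chr7:132576349-132576648 (minus strand) for Oat, chr2:102706188-102706487 (plus strand) for Slc1a2 and chr11:102145263-102145562 (plus strand) for Nags.
Glul: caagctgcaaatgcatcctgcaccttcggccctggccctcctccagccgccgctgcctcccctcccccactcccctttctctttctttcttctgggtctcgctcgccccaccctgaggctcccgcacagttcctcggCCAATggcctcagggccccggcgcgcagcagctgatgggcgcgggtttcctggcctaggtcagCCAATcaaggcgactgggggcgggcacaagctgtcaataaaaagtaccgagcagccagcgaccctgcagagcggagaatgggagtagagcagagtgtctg
Oat: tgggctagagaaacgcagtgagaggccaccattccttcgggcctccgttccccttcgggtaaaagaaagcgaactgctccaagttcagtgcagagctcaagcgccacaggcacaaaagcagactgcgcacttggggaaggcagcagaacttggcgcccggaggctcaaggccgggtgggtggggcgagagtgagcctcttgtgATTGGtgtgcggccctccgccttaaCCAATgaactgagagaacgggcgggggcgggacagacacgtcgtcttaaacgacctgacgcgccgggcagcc
Slc1a2: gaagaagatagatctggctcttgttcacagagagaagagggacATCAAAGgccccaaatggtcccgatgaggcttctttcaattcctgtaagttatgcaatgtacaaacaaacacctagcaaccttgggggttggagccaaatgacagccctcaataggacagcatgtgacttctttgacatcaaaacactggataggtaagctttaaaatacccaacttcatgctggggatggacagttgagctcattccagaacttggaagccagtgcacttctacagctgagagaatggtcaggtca
Nags: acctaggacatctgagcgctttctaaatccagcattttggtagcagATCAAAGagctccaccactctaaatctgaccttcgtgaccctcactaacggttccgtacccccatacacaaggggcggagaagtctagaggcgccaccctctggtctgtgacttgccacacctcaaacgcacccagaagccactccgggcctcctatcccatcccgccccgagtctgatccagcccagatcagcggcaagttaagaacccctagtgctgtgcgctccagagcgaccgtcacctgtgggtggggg
Counted from the start site, the match lies at -207 in Slc1a2 and at -204 in Nags, a pericentral and a periportal gene. The Slc1a2 window sits inside the gene, which spans positions 102658239 to 102790784 of chromosome 2, so it marks an internal start. A match is a description of letters, not a bound site.

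Pericentral genes stood at the top of the abundance range in every tumour and ranged 2.02-fold to 2.76-fold across them. Glul (ENSMUSG00000026473, GRCm38.p6 chromosome 1, 153899929 to 153909723) was lowest in tumour 09 at 5388 CPM, had a median of 10146 and was highest in tumour 04 at 14854 CPM, with a mean of 10580 ± 2931 (SD, n = 10). The next lowest, tumour 13, had 8575 CPM. On the log2 scale this gap took up 0.458 of the whole range, short of Dixon's critical value of 0.466 for 10 samples. Oat (ENSMUSG00000030934, chromosome 7, 132557475 to 132576398) ranged from 6093 CPM in tumour 06 through a median of 9594 to 14768 CPM in tumour 10, with a mean of 9275 ± 2599. Slc1a2 (ENSMUSG00000005089, chromosome 2) ranged from 1330 CPM in tumour 06 through a median of 2298 to 2692 CPM in tumour 10, with a mean of 2175 ± 442. Oat and Slc1a2 shared their lowest and highest tumours, and r between them was 0.87 over 10 tumours. Glul followed neither, with r of 0.04 with Oat and -0.08 with Slc1a2. The family of tumours 04 to 06 had the highest mean for Glul, 12596 CPM, and the lowest for Oat and Slc1a2, 6845 and 1730 CPM.

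Periportal genes differed widely in how steady they were from tumour to tumour. Gls2 (ENSMUSG00000044005, chromosome 10, 128194635 to 128210004), which releases ammonia from glutamine, had the lowest mean of the 9 genes, in CPM and per kilobase of exon. It stood at 19.4 CPM in tumour 12 and 13.7 CPM in tumour 08, and at 0.946 to 3.52 CPM in the other 8 tumours, with a median of 1.78 and a mean of 4.71 ± 6.43 (SD, n = 10). Its lowest value rests on 15 counts in tumour 11, with an exact 95% Poisson interval of 0.530 to 1.56 CPM that covers counting error only. Gls2 shares 680 bases of exon with the overlapping gene Spryd4, itself at 20.7 to 37.6 CPM, and reads in that stretch cannot be given to either gene without knowing the counting options.

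Cps1 (ENSMUSG00000025991, chromosome 1, 67122426 to 67231267) makes carbamoyl phosphate, the entry of ammonia into the cycle. It split the tumours: 218 CPM in tumour 12, 199 in tumour 09, 182 in tumour 08 and 125 in tumour 06, against 4.53 to 38.3 CPM in the other 6. The median was 30.2, the mean was 82.8 ± 88.1 (SD, n = 10) and the highest tumour exceeded the lowest 48.2-fold. Nags (ENSMUSG00000048217, chromosome 11, 102145513 to 102149528), whose product makes the activator of CPS1, did not share this spread. Nags ranged from 110 CPM in tumour 09 through a median of 181 to 258 CPM in tumour 05, with a mean of 180 ± 39.1. The tumour with the highest Nags had the lowest Cps1, and r between these genes was -0.73. Otc (ENSMUSG00000031173, chromosome X, 10252230 to 10321024), which joins carbamoyl phosphate to ornithine, ranged from 9.89 CPM in tumour 05 through 31.7 to 69.7 CPM in tumour 12, with a mean of 33.2 ± 20.5. Its next highest tumour was tumour 10 at 59.4 CPM, where Cps1 had 22.1 CPM.

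Asl (ENSMUSG00000025533, chromosome 5, 130011258 to 130024381), which splits argininosuccinate, was the steadiest gene. It ranged from 206 CPM in tumour 07 through 247 to 306 CPM in tumour 11, with a mean of 250 ± 30.6 (SD, n = 10), 1.49-fold from end to end. Cps1 and Asl, enzymes of the same cycle, therefore had the widest and the narrowest ranges of the 9 genes.

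**Figure D1:**
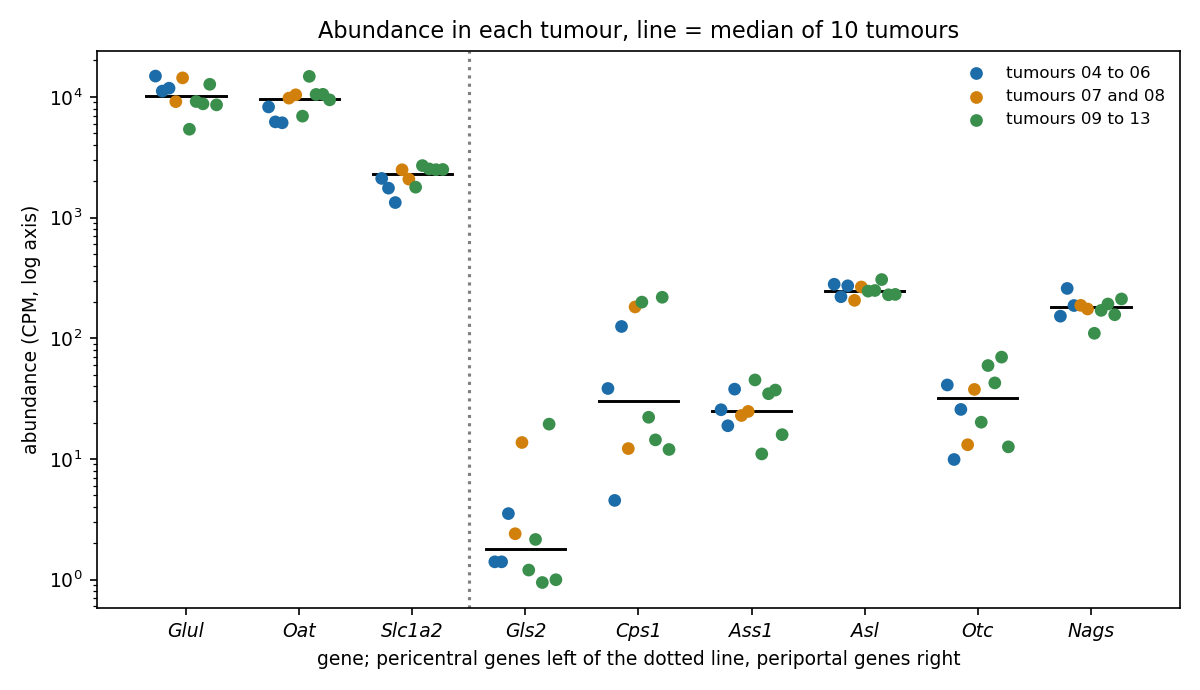
Abundance of the 9 genes in CPM on a log axis, with 1 point per tumour coloured by tag family and a black line at the median of 10 tumours. Glul, Oat and Slc1a2 lie above 1330 CPM in every tumour. Asl forms a tight group near 250 CPM, Nags runs from 110 to 258 CPM, and Gls2 and Cps1 spread over 20.5-fold and 48.2-fold.

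Ass1 (ENSMUSG00000076441, chromosome 2, 31470270 to 31520670), which makes argininosuccinate, ranged from 11.0 CPM in tumour 10 through 25.1 to 45.1 CPM in tumour 09, with a mean of 27.4 ± 10.9 (SD, n = 10). This level is uncertain. The processed pseudogene Gm5424 is 99.5% identical to the Ass1 transcript over 1240 bases, and it had 146 to 538 CPM, which is 8.48 to 14.9 times the Ass1 value of the same tumour. Short reads from such stretches can align to both genes, and 45.4 to 57.9% of the lines of each library were marked as not unique. With the counts of both genes added, the pair had 157 to 583 CPM and a mean of 344 ± 156, of which Ass1 itself was 6.28 to 10.6%. On the log2 scale, Ass1 alone and the pair ran together over the 10 tumours (r = 0.92). Glul also has a processed pseudogene, Glns-ps1, 96.8% identical over 1126 bases, but adding its counts changed the mean of Glul only from 10580 to 11336 CPM.

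**Figure D2:**
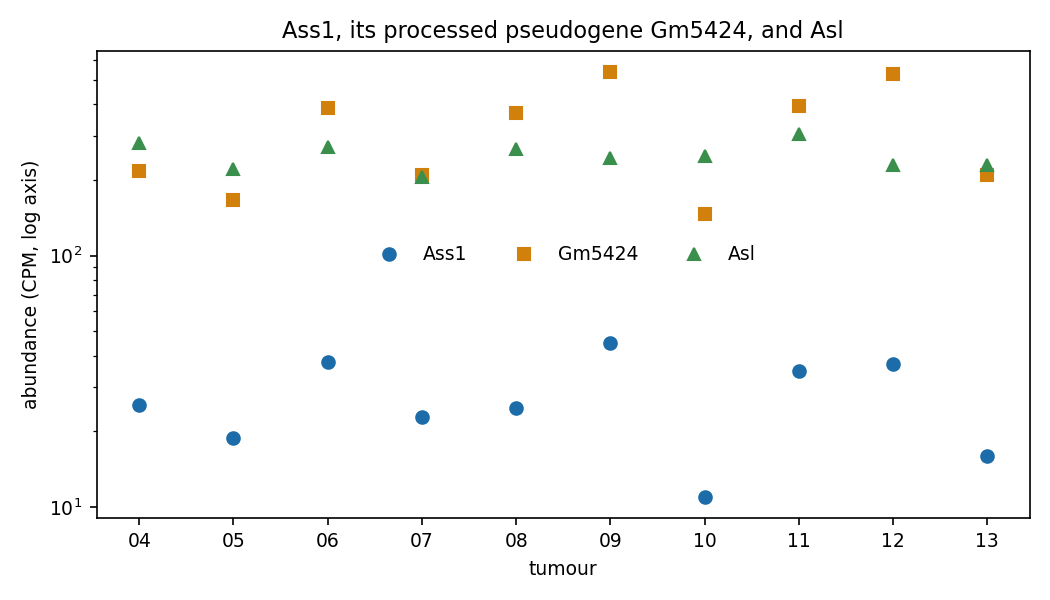
Abundance of Ass1, its processed pseudogene Gm5424 and Asl in each of the 10 tumours, in CPM on a log axis. The CPM of Gm5424 is 8.48 to 14.9 times that of Ass1 in the same tumour, and Asl varies least of the 3 genes.

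The order of levels between genes was read per kilobase of exon, because CPM does not allow for length. Mean values fell from 2680 CPM per kilobase for Glul to 1190 for Oat and 155 for Slc1a2. Nags followed at 63.4, Asl at 37.6, Cps1 at 13.5, Otc at 7.47, Ass1 at 7.32 and Gls2 at 1.08. The steps from Oat to Slc1a2 and from Slc1a2 to Nags held in 10 of 10 tumours with no overlap of ranges. Glul exceeded Oat in 10 of 10 tumours, and in 9 of 10 with the longest transcript, and their ranges overlapped. Nags exceeded Asl in 10 of 10 tumours by the union of exons but in 1 of 10 when the longest transcript was used, so these neighbours are not ordered. Cps1, Otc and Ass1 were not ordered either, since Cps1 exceeded Otc in 4 and Otc exceeded Ass1 in 5 of 10 tumours. Asl exceeded Cps1 in 9 of 10 tumours, and in 10 of 10 with the longest transcript, and their ranges overlapped. Ass1 exceeded Gls2 in 10 of 10 tumours, although the ranges of these 2 genes overlapped. With the pseudogene counts added, Ass1 would stand at 92.0 CPM per kilobase, above Nags and Asl.

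In CPM, the 3 pericentral genes together held 1.41 to 2.68% of all gene counts, and the 6 periportal genes 0.0444 to 0.0730%. These shares do not allow for length. Asl and Nags made up 52.8 to 93.3% of the periportal sum, the least in tumour 12 and the most in tumour 05. Single pairs of opposing genes were set side by side per kilobase. Glul exceeded Cps1 42.1-fold in tumour 09 and 3827-fold in tumour 05, and it exceeded Gls2 724-fold in tumour 12 and 11723-fold in tumour 04. Within the cycle, Cps1 stood above Otc in tumours 06, 08, 09 and 12, by up to 7.15-fold in tumour 09, and below it in the other 6, down to 0.244 of the Otc value in tumour 11. The Ass1 value was 0.0789 to 0.327 of the Asl value as counted, and 1.13 to 4.39 times the Asl value with the pseudogene counts added, so the direction of this pair depends on that choice.

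The spread of each gene was placed among all 12462 genes by the SD of log2 CPM over the 10 tumours, whose median was 0.33. Cps1 had an SD of 2.03 (percentile 99.8), Gls2 1.49 (98.9) and Otc 0.98 (94.6). Ass1 had 0.63 (84.3), Glul 0.44 (68.1) and Oat 0.40 (62.7). Nags, at 0.32 (47.4), Slc1a2, at 0.32 (47.2), and Asl, at 0.17 (6.03), lay below the median gene. Tumours with the same tag also differed in the variable genes. Cps1 differed 27.6-fold between tumours 05 and 06, 14.9-fold between 07 and 08, 9.00-fold between 09 and 10 and 18.2-fold among 11, 12 and 13. Gls2 differed 1.79-fold to 20.5-fold in the same 4 sets. Glul differed only 1.06-fold to 1.70-fold within these sets.

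**Figure D3:**
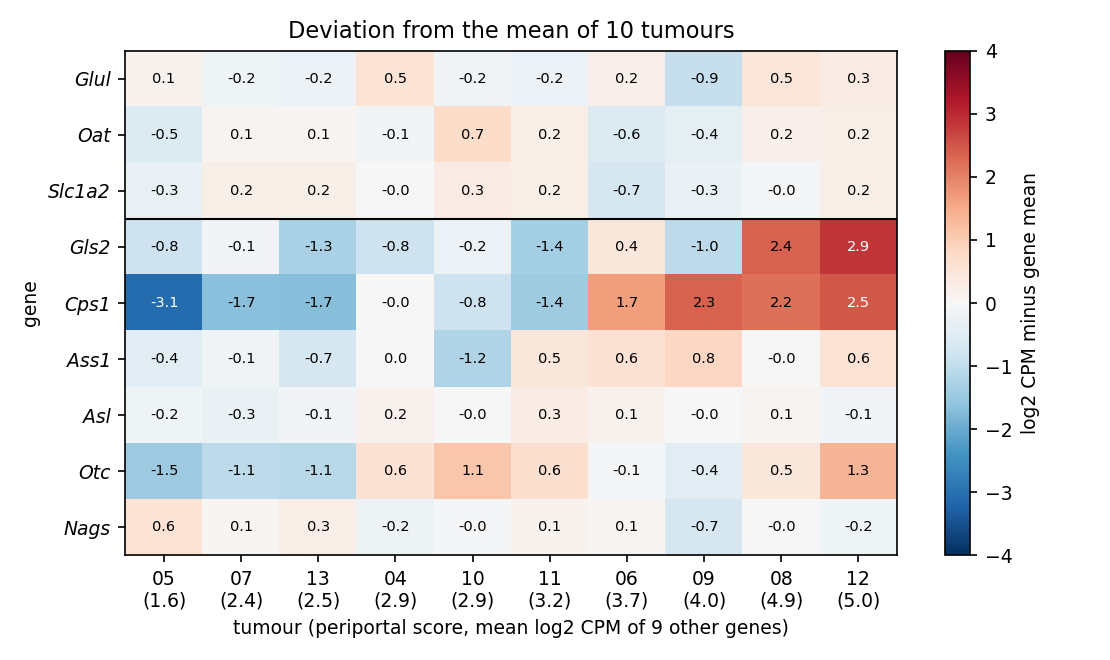
Deviation of log2 CPM from the gene's mean over 10 tumours, with tumours ordered from left to right by the periportal score in brackets and genes in rows (red higher, blue lower). Cps1 runs from blue to red along the order, Gls2 is strongly red only in tumours 08 and 12, and Asl stays near 0 throughout.

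The first comparison asked whether the other genes move with Glul across tumours. No gene moved with Glul at an adjusted p under 0.05 in edgeR's quasi-likelihood test over 12461 genes (0.0% called), and 399 (3.2%) had an unadjusted p under 0.05. DESeq2's Wald test called 10 genes, and so did the edgeR fit with the tag family as a block, in which the adjusted p of Gls2 was 0.126. Of the other 8 genes, Gls2 alone had an unadjusted p under 0.05 with a positive slope, against 1.56% of all genes. The slope of Gls2 was 2.73 ± 0.91 log2 units per log2 unit of Glul (SE, edgeR p = 0.0118, adjusted p 1.00), which does not pass the adjusted test. Its size rests on single tumours, since it was 4.42 without tumour 09, 2.09 without tumour 12 and 5.48 without tumours 09 and 04. Correlations with Glul ranged from r = -0.10 for Ass1 to r = 0.55 for Gls2 (n = 10 tumours). For Gls2, the permutation p for r was 0.106, and Spearman's rho was 0.68 with a permutation p of 0.0343. Both had an adjusted p of 1.00 over 12461 genes. Without tumours 09 and 04, the farthest from the Glul median, r for Gls2 was 0.85 (exact permutation p = 0.00640, n = 8) and r for Cps1 was 0.74 (exact permutation p = 0.0520, n = 8). These p-values are unadjusted. In the edgeR fit on the same 8 tumours no gene passed, and the adjusted p of Gls2 was 0.999. Tumour 09 alone set the flat slope of Cps1, which was 0.07 with it and 5.20 without it (edgeR p = 0.00581, adjusted p 1.00). In that tumour the lowest Glul met the second highest Cps1. Its marker sums were the highest for stellate cells (1317 CPM) and cholangiocytes (145 CPM) and the second highest for endothelium (200 CPM), macrophages (118 CPM) and blood genes (1767 CPM). On Glul over all 10 tumours, the 5 stellate, 5 endothelial and 4 blood genes tested had negative slopes, with medians of -0.77, -0.48 and -1.63, and none had an unadjusted p under 0.05. The part of these cells in the result was not tested.

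The next comparison set the genes against the Wnt feedback score, the mean log2 CPM of Axin2, Lgr5, Notum, Nkd1, Tbx3, Sp5, Znrf3 and Rnf43, targets of β-catenin that are not among the 9 genes. Of 12454 genes tested, 1 passed (0.00803% called), Steap4, a metalloreductase, which fell by 1.90 log2 units per unit of the score (edgeR adjusted p = 0.00936). This call depends on the fit, since no gene passed without tumour 07, without tumours 07 and 06, or with the tag family as a block. None of the 9 genes passed. At an unadjusted p under 0.05 and with a positive slope there were 2 of the 9 genes, Slc1a2 and Oat, against 6.43% of all genes. With a negative slope there were 0 of 9, against 5.81%. The slope was 0.58 ± 0.20 for Slc1a2 (SE, edgeR p = 0.0144, adjusted p = 0.301) and 0.69 ± 0.26 for Oat (SE, edgeR p = 0.0235, adjusted p = 0.342). Within tag families the slopes were 0.60 for Slc1a2 (p = 0.0337) and 0.58 for Oat (p = 0.109) in the edgeR fit with the family as a block. Glul, the customary marker, had a slope of -0.11 ± 0.35 (edgeR p = 0.761), and an interval of 1 SE on either side spans 0. Cps1 had the steepest slope of the 9 genes, -2.57 ± 1.28 (edgeR p = 0.0680, adjusted p = 0.441), and -5.24 within tag families (edgeR p = 0.000978, adjusted p = 0.394). Of 7 further pericentral genes tested, all 7 had positive slopes with a median of 0.80, against -0.01 over all genes, and 4 had an unadjusted p under 0.05. These 4, named after their values were seen, were Cyp1a2, Gulo, Slc22a3 and Lect2, and none passed the adjusted test. The study counts Lect2, like the score genes Lgr5 and Notum, among the downstream targets of the pathway. Markers of other cells were fitted to this score too, and none passed the adjusted test. All 4 blood genes tested had positive slopes, with a median of 1.46 and 1.32 ± 0.55 for Alas2 (edgeR p = 0.0340, adjusted p = 0.376), and of the 2 macrophage markers tested, Cd68 had a slope of -1.18 ± 0.52 (edgeR p = 0.0437, adjusted p = 0.397) and Adgre1 one of 0.18 ± 0.41 (edgeR p = 0.672). Tumour 07 had both the highest score, 7.52, and the highest summed blood genes. With the blood genes as a covariate, the slopes were 0.62 for Slc1a2 and 0.75 for Oat, and without tumour 07 they were 0.77 and 0.99. Over the fits that leave out 1 tumour, the slope of Slc1a2 was lowest without tumour 06 (0.41, adjusted p = 0.599) and that of Oat without tumour 10 (0.54, adjusted p = 0.445).

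The last comparison set the genes against a periportal score, the mean log2 CPM of Cyp2f2, Hal, Sds, Uroc1, Hsd17b13, Aldh1b1, Gldc, Pck1 and Ctsc. These are periportal genes outside the set followed here, but not all are unrelated to it in function. Hal starts the breakdown of histidine, an amino acid, so the score is not separate from nitrogen handling. The score was lowest in tumour 05 at 1.58 and highest in tumours 08 and 12 at 4.93 and 4.96. Of the score genes, 2 did not pass the filter on low counts, Cyp2f2 and Sds, with 2 and 0 counts in tumour 05, so its lowest score rests partly on floor values. A score of the other 7 genes, an alternative added after seeing the data, was also lowest in tumour 05, at 2.82, close to tumour 07 at 2.89. Of 12455 genes tested, 1 passed (0.00803% called), Pigr, the transporter of polymeric immunoglobulin, which rose by 1.34 log2 units per unit of the score (edgeR adjusted p = 0.00109). No gene passed without tumours 12 and 08. Cps1 ranked next among all genes. Its slope was 1.80 ± 0.24 (SE, edgeR p = 9.15e-06) with an adjusted p of 0.0570, which misses the threshold of 0.05. Over 19 alternatives the Cps1 slope stayed between 1.67 and 2.34 and the adjusted p was under 0.05 in 6 of them, including the fit within tag families (slope 1.91, adjusted p = 0.0414) and that on the 7-gene score (slope 2.07, adjusted p = 0.0325).

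At an unadjusted p under 0.05 and with a positive slope there were 3 of the 9 genes, Cps1, Gls2 and Otc, against 3.51% of all genes. With a negative slope there were 0 of 9, against 3.55%, and 7.06% of all genes had such a p in either direction. Gls2 had a slope of 1.16 ± 0.22 (SE, edgeR p = 0.000229, adjusted p = 0.255), but this rests on tumours 08 and 12. Without them the slope was 0.22 (edgeR p = 0.509), and tumour 09, next in the score, had only 1.20 CPM. Otc had a slope of 0.54 ± 0.23 (SE, edgeR p = 0.0361, adjusted p = 0.692), and 0.30 (edgeR p = 0.219) with the Rpph1 set as a covariate. On the 7-gene score the unadjusted edgeR p was 0.00247 for Gls2, 0.0503 for Otc, 0.0164 for Ass1 and 0.0297 for Nags, and each slope kept the sign it had on the full score. Ass1 had 0.33 ± 0.15 (edgeR p = 0.0530) and, with the pseudogene counts added, 0.50 (adjusted p = 0.513). Nags ran the other way at -0.17 ± 0.08 (edgeR p = 0.0557), and Asl was at 0.05 ± 0.07. The 3 pericentral genes had slopes of 0.09 for Glul, 0.06 for Oat and -0.02 for Slc1a2, each smaller than its SE. Marker genes were fitted to this score as well, and none passed the adjusted test. Of 4 hepatocyte markers tested, 3 (Alb, Ttr and Apob) had positive slopes at an unadjusted p under 0.05, and Apoa1 had a slope of -0.10 ± 0.13 (edgeR p = 0.487). Rpph1 and Rmrp had negative slopes at an unadjusted p under 0.05. Negative slopes at p above 0.05 were seen for 4 of 4 blood genes and 5 of 5 endothelial markers tested. Of the 2 cholangiocyte markers tested, Spp1 had a slope of 1.14 ± 0.33 (edgeR p = 0.00551, adjusted p = 0.587) and Krt19 one of -0.16 ± 0.46 (edgeR p = 0.727). The part of these in the result was not tested, beyond the covariate fits, in which Cps1 kept slopes of 1.92 with the Rpph1 set and 1.80 with the blood genes.

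**Figure D4:**
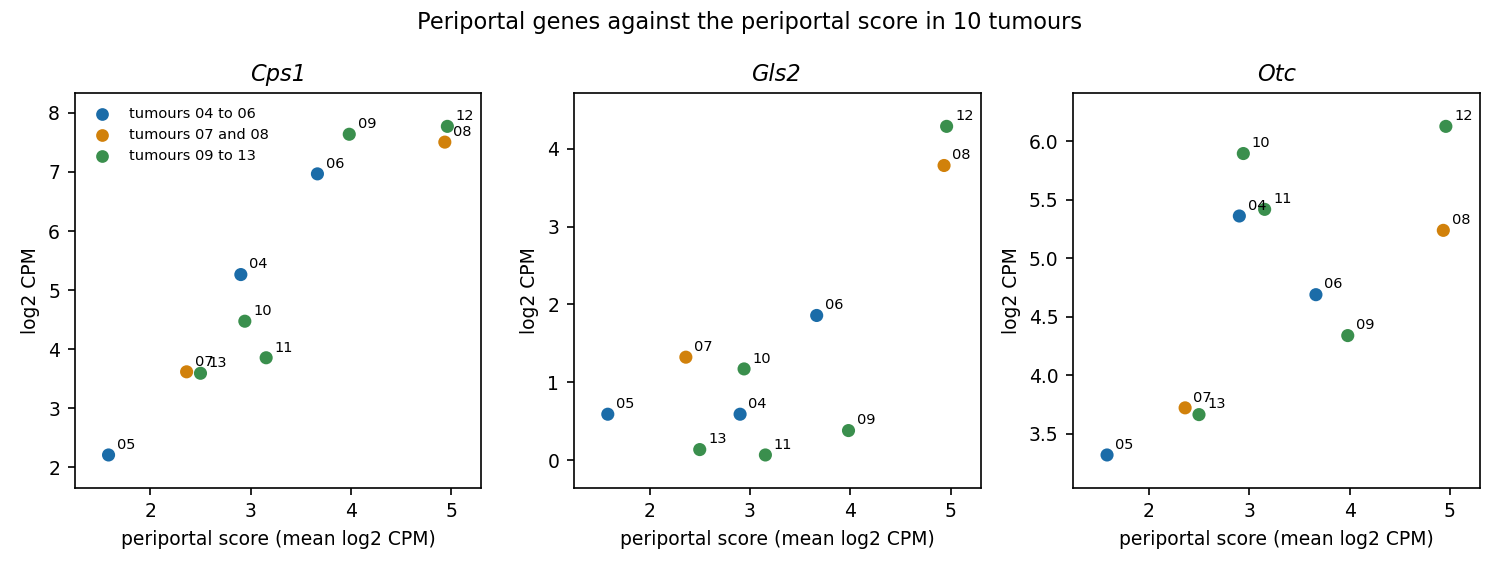
Log2 CPM of Cps1, Gls2 and Otc against the periportal score, the mean log2 CPM of 9 other periportal genes, with 1 labelled point per tumour coloured by tag family. Cps1 is higher at higher scores over most of the range, whereas Gls2 is highest in tumours 08 and 12 and Otc is scattered.

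**Figure D5:**
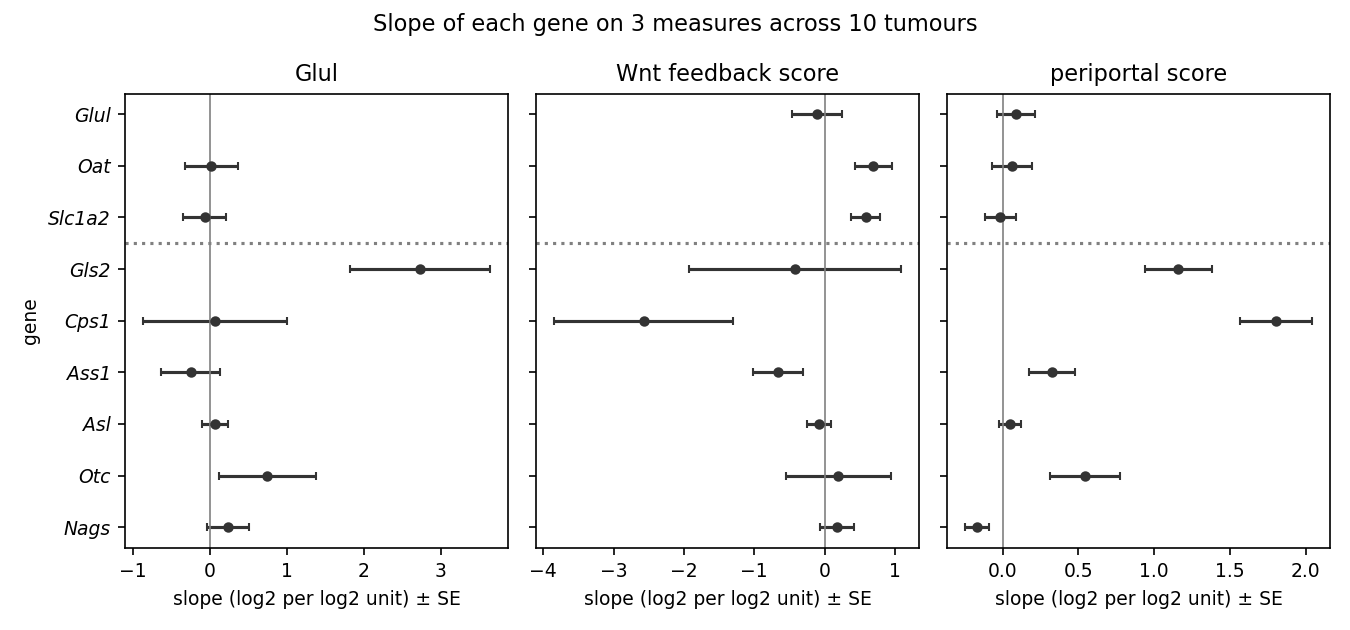
Slope ± SE of each of the 9 genes, in log2 units per log2 unit, on Glul, the Wnt feedback score and the periportal score over 10 tumours. The horizontal scales differ between panels. Slopes on the periportal score are more than 3 SE above 0 for Cps1 and Gls2 and near 0 for the pericentral genes, while none of the slopes passes the adjusted test.

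Other genes that feed the urea cycle carry or prepare its substrates. Of 7 such genes listed (Slc25a15, Slc25a13, Car5a, Slc7a2, Aqp9, Slc14a1 and Sirt5), 6 passed the filter on low counts and ranged from 1.49-fold (Slc25a13) to 3.25-fold (Car5a) across tumours, and together the 7 genes summed to 1151 to 1905 CPM. Slc25a15, the mitochondrial ornithine carrier, had a periportal slope of 0.39 ± 0.10 (edgeR p = 0.00179, adjusted p = 0.484), and it is named after its values were seen. All 6 tested had positive slopes on that score, with a median of 0.14, where 5912 of 12455 genes were positive and the median was -0.01, and 1 of the 6 had an unadjusted p under 0.05. On Glul, 5 of the 6 slopes were negative, and none had an unadjusted p under 0.05. On the Wnt feedback score 4 were positive and 2 negative. There 1 of the 6, Sirt5, named after its values were seen, had an unadjusted p under 0.05, against 6.43% of all genes with a positive slope. Its slope was 0.41 ± 0.18 (edgeR p = 0.0405, adjusted p = 0.389). Of 16 genes of glutamine and glutamate metabolism, 15 were tested, and none passed the adjusted test in the 3 edgeR fits. At an unadjusted p under 0.05, 3 had positive slopes on the periportal score (Got1, Got2 and Gpt2, transaminases named after their values were seen), against 3.51% of all genes, and none had a negative slope. On the Wnt feedback score at the same threshold, Got1 (-1.21) and Gpt2 (-0.76) had negative slopes, against 5.81% of all genes, and the glutamine transporter gene Slc1a5 (0.48), named likewise, a positive one, against 6.43%. On Glul, Got1 (-0.98) had a negative slope, against 1.65%. Of 8 regulators of urea genes, among them Hnf4a at 612 to 897 CPM and Cebpa at 139 to 408 CPM, none passed in any of the 3 fits. Gcgr, the glucagon receptor, named after its values were seen, had the smallest unadjusted p of these 8 on the Wnt feedback score, with a slope of 0.93 ± 0.19 (edgeR p = 0.000471, adjusted p = 0.167).

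The genes whose log2 CPM ran most closely with each of the 9 genes over the 10 tumours were named by Pearson's r, as a description. Glul lay nearest to its own pseudogene Glns-ps1 (0.95) and then to Sdr42e1 and Cyp4a12b (both 0.88), and Ass1 nearest to Gm5424 (0.90), Tbc1d2 and Cd72. These pseudogenes share sequence with their parents. Cps1 was nearest to C8b (0.90) and Alb (0.89). Gls2 was nearest to Hal (0.96), Cep44 and Thumpd3. Hal starts the breakdown of histidine and, like Gls2, was highest in tumours 08 and 12. Oat was nearest to Echdc3 (0.93), Wbp1 and Rnf123. Slc1a2 was nearest to Slc2a2 (0.96), Dhrs11 and Kank2, Asl to Tsr2 (0.91), Meaf6 and Alkbh4, Otc to Akr1c13 (0.92), Mxd4 and Proz, and Nags to Ccdc191 (0.95), Gps2 and Cbx2.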

How the data were processed

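Polyadenylated RNA of liver tumours was sequenced. The authors deposited 1 table of raw read counts per gene, and the submitters' processing notes name TopHat2, HTSeq and GRCm38. Libraries were made with a stranded kit per the labels. The study's methods describe mapping by STAR and featureCounts to a later mouse build, which differs from these notes, so the versions, counting options and strand setting behind this table are not known here. Columns were assigned to tumours by a library number found in the title of 1 sample only, which assumes that titles carry library numbers; this gave 10 columns, and the other 9 columns were not used. The 5 summary lines of the table were kept out of library sizes and tests.

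Counts were scaled by TMM in edgeR 4.0.16 (R 4.3.3) and filtered with filterByExpr as 1 group. Log2 CPM has a prior count of 2, and lengths are exon unions of GENCODE M39. Slopes on Glul and on the scores came from edgeR's quasi-likelihood test with Benjamini-Hochberg adjustment over all genes tested, and correlations from 100000 permutations, two-sided. The SE given with a slope is the size of the slope divided by the square root of that test's F statistic, not a separate estimate. DESeq2 1.42.0 served as an alternative. On simulated counts for 12462 genes, slopes of 1 and 2 were recovered for 20% and 70% of genes with Glul, 14% and 80% with the Wnt feedback score, and 92% and 100% with the periportal score. The simulation drew tumours and genes as independent and took the covariate as free of error. Recovery may differ for real tumours, some of which share a tag. Copies were transcripts with at least 90% identity over 200 bases. Positions and start windows come from RefSeq on GRCm38.p6. The genes named are the 9 genes, up to 3 nearest to each, list genes past the adjusted test, and markers, and some items are not reported here. These genes and lists were chosen with earlier results of these data known.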

Additional observations from a re-analysis of the deposited data

How the results depend on the processing

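Counts of genes past the adjusted test depended on the method. With Glul the count was 0 in the reported fit and 10 both with DESeq2's Wald test and with the tag family as a block. With the Wnt feedback score it was 1 as reported, 2 with no filter on low counts, 192 with DESeq2's Wald test, 24 with the Rpph1 set as a covariate, and 0 both without the 2 tumours farthest from the median (07 and 06) and with the tag family as a block. Leaving out 1 tumour gave 0 (without tumour 07) to 5 (without tumour 05). With the periportal score it was 1 as reported, 3 with no filter, 49 with DESeq2's Wald test, 4 with the tag family as a block, 3 with the 7-gene score and 0 without tumours 12 and 08, and leaving out 1 tumour gave 1 to 3. The cause of these differences was not tested.

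Slopes within their error of 0 changed sign in some fits, and none of these passed the adjusted test. Over the fits that leave out 1 tumour, slopes on Glul ranged over Oat -0.38 to 0.12, Slc1a2 -0.41 to 0.018, Cps1 -0.32 to 5.20, Ass1 -0.36 to 0.63, Asl -0.025 to 0.12 and Nags -0.35 to 0.37. On the Wnt feedback score they ranged over Glul -0.40 to 0.0038, Gls2 -1.07 to 0.34, Asl -0.18 to 0.080, Otc -0.18 to 0.92 and Nags -0.025 to 0.29, and on the periportal score over Oat -0.035 to 0.10 and Slc1a2 -0.085 to 0.0062. Correlations with Glul ranged over Oat -0.31 to 0.16, Slc1a2 -0.44 to 0.072, Cps1 -0.063 to 0.65, Ass1 -0.25 to 0.40 and Nags -0.44 to 0.51.

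Without the 2 tumours at the greatest distance from the median covariate, signs changed for Oat on Glul (-0.40), Ass1 on Glul (0.89), Nags on Glul (-0.23), Glul on the Wnt feedback score (0.15), Asl on the Wnt feedback score (0.20), Glul on the periportal score (-0.18) and Oat on the periportal score (-0.040). With no filter on low counts, signs changed for Slc1a2 on Glul (0.0052). With the tag family as a block, signs changed for Slc1a2 on Glul (0.31), Glul on the Wnt feedback score (0.072), Otc on the Wnt feedback score (-0.039) and Oat on the periportal score (-0.027). With the blood genes as a covariate, signs changed for Glul on the Wnt feedback score (0.068) and Gls2 on the Wnt feedback score (0.66). With the Rpph1 set as a covariate, signs changed for Oat on the periportal score (-0.062).

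On the periportal score, Cps1 passed the adjusted test with no filter (adjusted p = 0.0343), with the tag family as a block (0.0414), with the 7-gene score (0.0325), with DESeq2's Wald test (1.05e-14), without tumour 06 (0.0307) and without tumour 09 (0.0385), and its adjusted p reached 0.472 without tumour 05. Gls2 passed with DESeq2's Wald test only (0.00421). The order of levels depended on transcript length, and the height of Ass1 on its pseudogene, an alternative chosen after seeing the data. No paired analysis was possible because only tumours 04 to 13, a single group, entered the fits, and no control sample carries one of their numbers. Gls2 is limited by depth in its lowest tumour, with 15 counts.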
